A study of Mus musculus with 7 samples.

Results

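Nuclear genes of the mitochondrial respiratory chain and ATP synthase were described by complex in mouse liver. They were every entry of the expression table whose symbol starts with Nduf, Uqcr, Atp5 or Cox4 to Cox8 followed by a letter from a to i, together with Sdha, Sdhb, Sdhc and Sdhd, which gave 93 of 22564 genes. Complex I held 36 of them, complex II 4, complex III 8, complex IV 20 and complex V 15. The 7 Ndufaf genes, which encode assembly factors of complex I, were kept apart, as were Atp5s, Atp5sl and the pseudogene Atp5l-ps1. Ndufa4 and its relative Ndufa4l2 carry a complex I name and were counted in complex IV, where the Ndufa4 protein is now placed. The livers came from C57bl/6 mice, 4 of them treated with PTH, the parathyroid hormone, which raises cyclic AMP through its receptor, and 3 with phosphate-buffered saline (PBS). The titles shorten the groups to C+P and C without saying what C stands for, and give no dose, duration, age or sex. An injury or treatment that both groups share can therefore not be told from the labels. Nothing in the labels ties each library to its own mouse, so the p-values reflect spread among these libraries, which may in part be technical.

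The respiratory chain sits in the inner mitochondrial membrane. Complexes I and II pass electrons from NADH and succinate to ubiquinone, complex III passes them on to cytochrome c, complex IV hands them to oxygen, and complex V uses the proton gradient that results to make ATP. Complex II is built from nuclear genes alone, while the other complexes mix nuclear subunits with a few encoded by mitochondrial DNA, so that nuclear and mitochondrial supply must be matched. In liver this chain feeds gluconeogenesis, urea synthesis and other work of the hepatocyte that costs ATP.

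Respiratory chain genes were higher in PTH livers or did not pass the test, and none was lower. Of the 86 genes with at least 0.5 FPKM (fragments scaled by transcript length and library size) in at least 3 libraries, 26 were higher and 0 lower by limma at an adjusted p under 0.05. That was 30.2% of the genes tested, beside 22.8% higher and 2.37% lower among all 11861 tested genes. At an unadjusted p under 0.05 the counts were 42 higher and 0 lower. The share of all tested genes at that threshold is not given here, so these counts alone do not set the members apart. The log2 change was above 0 for 83 of the 86 genes and had a median of 0.70, beside 0.55 over all tested genes, so most of the difference between the groups was shared with the rest of the transcriptome. All 4 PTH libraries lay above all 3 PBS libraries for 34 of the 86 genes (39.5%), beside 32.9% of all tested genes, and all lay below for 0, beside 3.2%.

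Against that general shift little remained. When libraries were scaled to a common median, 2 of the 86 genes were higher and 0 lower, beside 2.96% higher and 4.75% lower (7.71% in either direction) among all tested genes, and the median change of the 86 was 0.11. The 2 were Ndufb9 of complex I and Cox7a2 of complex IV. With quantile scaling 6 were higher, beside 3.937% of all tested genes, namely Ndufb8, Ndufb9, Cox6c, Cox7a2, Cox7a2l and Cox8a. Each library was also left out in turn, without scaling. This gave 8 higher genes without PTH 2, 9 without PBS 3, 10 without PBS 2 and 14 without PTH 3. Among all tested genes the share also fell, to 8.572%, 10.57%, 11.04% and 13.59% in that order. The count was 21 without PTH 1, 22 without PBS 1 and 34 without PTH 4, beside 23.49%, 18.67% and 20.6% of all tested genes. The low counts were thus shared with all tested genes, while the rise to 34 was not. These shares also stand beside the counts by complex given below with 1 library left out. The 7 genes past the threshold whichever library was left out were Ndufb8, Ndufb9, Cox6c, Cox7a2, Cox7a2l, Atp5h and Ndufaf4. Values below are FPKM as deposited, changes are PTH minus PBS on the log2(FPKM + 0.5) scale, and "higher" marks a gene past the threshold on that scale. Coordinates are those of GRCm38 (GENCODE M21).

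**Figure D1:**
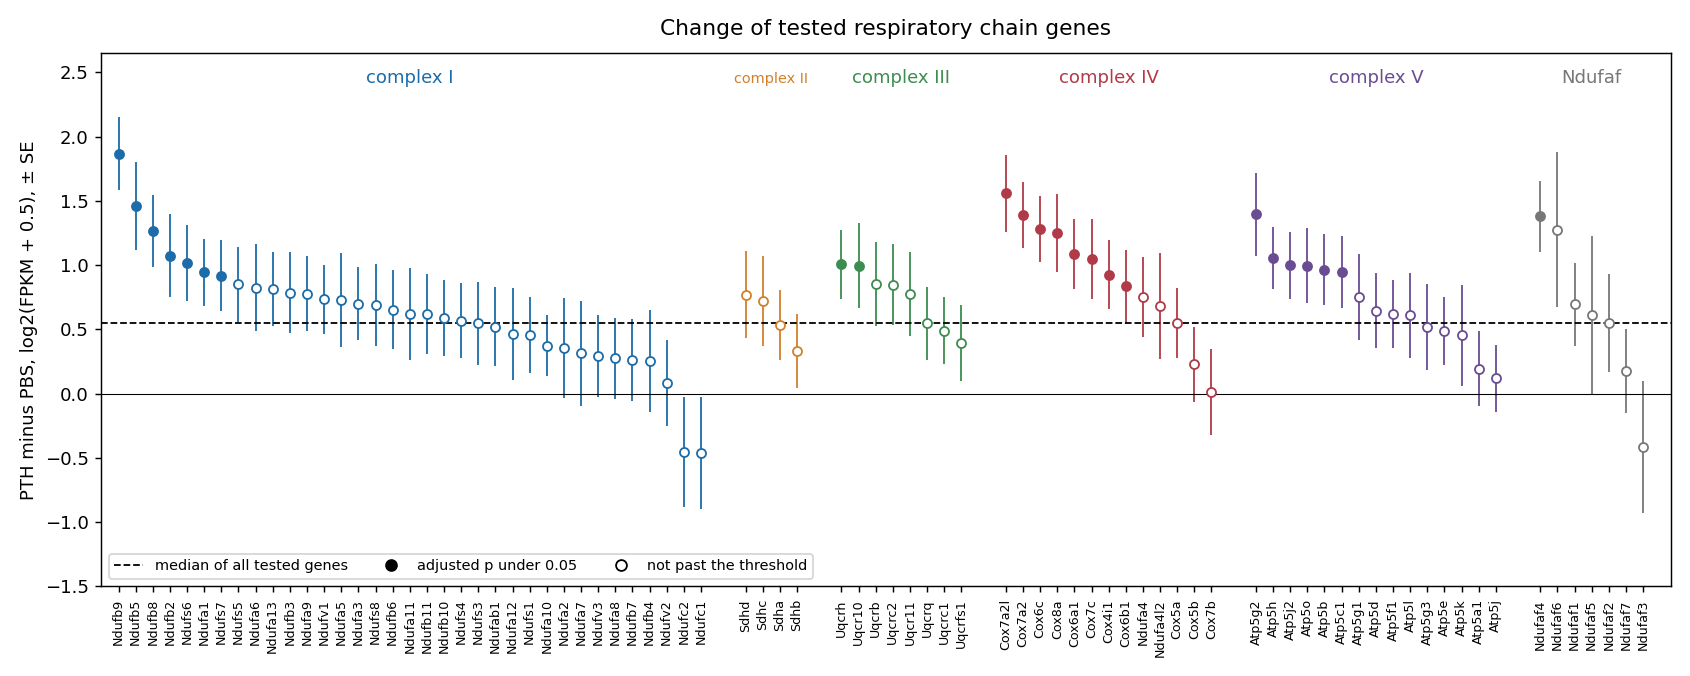
Log2 change, PTH minus PBS, of tested genes of complexes I to V and the Ndufaf genes, with SE, ordered by size within each complex; filled points passed the threshold and open points did not. Most points lie above 0 and around the dashed line, which is the median change of all tested genes at 0.55.

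Many respiratory chain genes carry binding motifs of NRF1, of the ETS factor GABP or of YY1 near their start site. RefSeq windows of GRCm38.p6, from 250 bases before to 50 bases after the start, were at hand for 73 of the 93 genes and for 15850 genes of the table. They were searched on both strands for CGCNTGCG (the inner part of the NRF1 motif), CCGGAAG (ETS) and AANATGGC (YY1), and overlapping matches of different motifs were each counted. The NRF1 letters were found in 35.6% of the members' windows and 11.8% of all windows, the ETS letters in 21.9% and 12%, and the YY1 letters in 20.5% and 6.79%. At least 1 of the 3 motifs was found in 48 of 73 members' windows (65.8%), beside 26.2% of all windows. The share was 16 of 21 (76.2%) among members that were higher in PTH livers and 32 of 48 (66.7%) among tested members that did not pass. By complex it was 22 of 32 for complex I, 3 of 3 for complex II, 4 of 5 for complex III, 4 of 14 for complex IV and 10 of 13 for complex V. The 14 windows of complex IV include 4 of genes too low to be tested, Cox6b2, Cox7a1, Cox7b2 and Cox8b. Of these 4 windows 0 held a match, which lowers the share of complex IV. A match is a description of letters and not a bound site, and a window without one says nothing about the factor.

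The 5 windows below all hold a match and so do not stand for the members as a whole. Of their genes 4 were higher in PTH livers, while Sdha, with the NRF1 letters in 3 places, did not pass the threshold. The windows of Cox7a2 and Cox7a2l, which recur in the results, hold no match. Letters of a motif are in capitals, each window reads 5′ to 3′ along the gene's own strand, and positions count the first base of a match from the start site as 0. Ndufb8 (chr19:44555393-44555692, minus strand) has the YY1 letters at 38. Sdha (chr13:74350191-74350490, minus strand) has the NRF1 letters at -97, -54 and -9. Cox6a1 (chr5:115348909-115349208, minus strand) has them at -161 and -116 and the ETS letters at -16. Atp5h (chr11:115419870-115420169, minus strand) has the NRF1 letters at -140 and the ETS letters at -38. Ndufaf4 (chr4:24897833-24898132, plus strand) has the NRF1 letters at -112.
Ndufb8: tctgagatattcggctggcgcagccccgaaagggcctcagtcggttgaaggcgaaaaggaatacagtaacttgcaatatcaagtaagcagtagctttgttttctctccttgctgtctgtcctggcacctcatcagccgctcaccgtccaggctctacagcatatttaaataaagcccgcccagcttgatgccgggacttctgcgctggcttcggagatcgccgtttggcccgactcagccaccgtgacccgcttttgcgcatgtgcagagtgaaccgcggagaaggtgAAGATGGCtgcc
Sdha: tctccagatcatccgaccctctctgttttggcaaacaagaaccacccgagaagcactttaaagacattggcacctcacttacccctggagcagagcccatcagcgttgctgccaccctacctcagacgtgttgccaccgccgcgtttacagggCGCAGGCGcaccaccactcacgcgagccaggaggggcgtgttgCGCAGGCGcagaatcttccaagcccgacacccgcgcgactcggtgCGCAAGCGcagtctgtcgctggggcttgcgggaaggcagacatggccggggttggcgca
Cox6a1: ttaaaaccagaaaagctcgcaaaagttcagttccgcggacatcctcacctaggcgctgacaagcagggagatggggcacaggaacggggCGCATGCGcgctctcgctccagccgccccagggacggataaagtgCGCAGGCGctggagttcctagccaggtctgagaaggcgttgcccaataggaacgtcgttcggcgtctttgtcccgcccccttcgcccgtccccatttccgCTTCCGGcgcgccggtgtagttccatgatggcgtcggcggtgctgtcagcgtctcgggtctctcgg
Atp5h: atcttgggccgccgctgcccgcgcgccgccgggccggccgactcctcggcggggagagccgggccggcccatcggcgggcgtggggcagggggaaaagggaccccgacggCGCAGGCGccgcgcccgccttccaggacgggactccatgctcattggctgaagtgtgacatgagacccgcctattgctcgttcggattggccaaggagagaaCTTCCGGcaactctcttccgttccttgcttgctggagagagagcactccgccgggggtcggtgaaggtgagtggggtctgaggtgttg
Ndufaf4: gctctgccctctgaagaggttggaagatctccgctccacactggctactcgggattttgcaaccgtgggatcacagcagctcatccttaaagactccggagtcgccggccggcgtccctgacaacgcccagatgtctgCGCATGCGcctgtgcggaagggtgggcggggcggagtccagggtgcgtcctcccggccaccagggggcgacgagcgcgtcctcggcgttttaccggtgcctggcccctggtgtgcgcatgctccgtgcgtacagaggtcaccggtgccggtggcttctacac

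In complex I, 8 of 36 tested genes were higher (22.2%), a share close to the 22.8% of all tested genes, and the median change was 0.64, which is 0.09 above that of all tested genes. Among the 7 core subunits, which carry the flavin, the iron-sulfur clusters and the ubiquinone site, 2 were higher, and among the 29 supernumerary subunits, which surround that core, 6 were. The supernumerary subunit gene Ndufb9 (chr15:58933756-58939488) stood highest by change of all 86. It had 143, 131, 117 and 103 FPKM in PTH livers, against 49.0, 26.1 and 28.7 FPKM in PBS livers. The lowest PTH library held more than the highest PBS library by a wide margin. The log2 change was 1.87 (SE 0.28, adjusted p = 0.00372), and 2.34% of all tested genes had a higher one. Under a common median it was 1.24 (adjusted p = 0.0123), and it was past the threshold in all 18 alternatives.

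Ndufb8 (chr19:44548572-44555440), whose protein belongs to the membrane arm and is often used as a marker of assembled complex I, had 61.0, 57.9, 39.6 and 33.1 FPKM in PTH livers, against 19.3, 19.0 and 18.6 FPKM in PBS livers. The PBS libraries were nearly equal while the PTH libraries spread over a wide range above them. Its log2 change was 1.27 (SE 0.28, adjusted p = 0.0115). Ndufb5, another membrane arm subunit, had 46.4, 41.7, 29.4 and 25.1 FPKM in PTH livers, against 19.6, 8.08 and 11.5 FPKM in PBS livers. The groups did not overlap, the change was 1.46 (SE 0.34, adjusted p = 0.0140), and the adjusted p was 0.051 without PTH 2 and 0.0539 without PBS 2. Further higher genes were the core subunit gene Ndufs7 and the supernumerary Ndufa1, Ndufb2 and Ndufs6, with changes between 0.92 and 1.07. Ndufb8, Ndufb5, Ndufb2 and Ndufs7 share their listed locus with another gene, so reads could be split there, and Ndufs7 is listed with the locus of Atp5d.

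By name series, 4 of 10 Ndufb genes, 3 of 8 Ndufs genes, 1 of 12 Ndufa genes, 0 of 3 Ndufv genes and 0 of 2 Ndufc genes were higher. The share among all tested genes was 22.8%, each series is small, and no test of a difference between series was run. The median change was 0.72 for Ndufb, 0.76 for Ndufs, 0.66 for Ndufa, 0.29 for Ndufv and -0.46 for Ndufc. The Ndufc genes were the 2 complex I genes with a change below 0. Ndufc1 had 13.9, 14.0, 10.8 and 3.68 FPKM in PTH livers, against 12.7, 18.9 and 9.66 FPKM in PBS livers. Ndufc2 had 23.4, 18.7, 15.2 and 5.27 FPKM in PTH livers, against 19.2, 22.2 and 16.2 FPKM in PBS livers. In both genes PTH 4 was far below the other libraries, and the rest overlapped. Their changes were -0.46 (SE 0.44, adjusted p = 0.438) for Ndufc1 and -0.45 (SE 0.43, adjusted p = 0.442) for Ndufc2, and without PTH 4 they were -0.05 and -0.02. From the deposited scaled counts the change of Ndufc1 had the other sign, at 0.36. Abundant members that did not pass were Ndufa3, with 111 ± 22.1 FPKM in PTH livers and 68.1 ± 16.5 FPKM in PBS livers (SD, n = 4 and 3), and Ndufa6, with 79.3 ± 23.5 FPKM in PTH livers and 44.9 ± 17.0 FPKM in PBS livers. Among the flavoprotein subunits, Ndufv1 had a change of 0.73 (adjusted p = 0.0631) and Ndufv2 one of 0.09 (adjusted p = 0.86), which was -0.53 under a common median. Leaving out 1 library moved the count of higher complex I genes between 2, without PTH 2, and 13, without PTH 4. It was 3 without PBS 2 or PTH 3 and 4 without PBS 3.

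In complex II, succinate dehydrogenase, 0 of 4 genes passed the threshold in either direction, beside 22.8% higher and 2.37% lower among all tested genes. With only 4 genes this count does not set the complex apart. By unadjusted p under 0.05 the count was 1, Sdhd, and the share of all tested genes at that threshold is not given here. The median change was 0.63, which is 0.08 above that of all tested genes. Sdha, the flavoprotein subunit, had 82.1, 65.0, 59.9 and 44.5 FPKM in PTH livers, against 45.2, 45.9 and 36.2 FPKM in PBS livers. The lowest PTH library fell among the PBS libraries. The change of Sdha was 0.54 (SE 0.27, adjusted p = 0.157) and that of the iron-sulfur subunit gene Sdhb was 0.33 (SE 0.29, adjusted p = 0.403), and under a common median both had the other sign, at -0.085 and -0.29. The membrane anchors Sdhc and Sdhd had changes of 0.72 (SE 0.35, adjusted p = 0.145) and 0.77 (SE 0.34, adjusted p = 0.111). Within PTH livers the ratio of Sdha to Sdhb was nearly constant, between 1.69 and 1.72, while in PBS livers it ran from 1.31 to 1.70. Without PTH 4, 1 complex II gene was higher, and the median relative to all genes was -0.05 without PTH 1 and -0.09 without PBS 3.

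In complex III, 2 of 8 genes were higher (25%), a share near the 22.8% of all tested genes. The median change was 0.81, which is 0.26 above that of all tested genes. With trends of transcript length and GC content removed, it was 0.64, beside 0.55 for all tested genes. Uqcrh, the hinge subunit that faces cytochrome c, had 128, 142, 91.5 and 89.5 FPKM in PTH livers, against 62.9, 46.7 and 55.9 FPKM in PBS livers. The groups did not overlap, and the change was 1.01 (SE 0.27, adjusted p = 0.0233). Uqcr10, a small membrane subunit, had 109, 106, 62.7 and 47.6 FPKM in PTH livers, against 37.4, 45.9 and 32.3 FPKM in PBS livers. The lowest PTH library lay just above the highest PBS library, and the change was 0.997 (SE 0.33, adjusted p = 0.0463). The most abundant member, Uqcrq, had 187 ± 25.1 FPKM in PTH livers and 131 ± 38.3 FPKM in PBS livers (SD, n = 4 and 3). Its change of 0.55 (SE 0.28, adjusted p = 0.168) had the other sign under a common median, at -0.079. The core protein genes Uqcrc1 and Uqcrc2 had changes of 0.49 (adjusted p = 0.175) and 0.85 (adjusted p = 0.0689), the Rieske protein gene Uqcrfs1 one of 0.40 (adjusted p = 0.33), and Uqcr11 one of 0.77 (adjusted p = 0.0992). Uqcrc1 and Uqcrfs1 had the other sign once scaled to a common median, at -0.13 and -0.22. Uqcrh, Uqcrb and Uqcrc2 have a listed locus in common with another gene. Without them the median change of complex III was that of Uqcrq, 0.547, beside 0.549 over all tested genes. No complex III gene was higher without PTH 2, PBS 2 or PBS 3, 1 was higher without PTH 1, PTH 3 or PBS 1, and 4 without PTH 4.

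Complex IV, cytochrome c oxidase, had the highest share of higher genes, 8 of 13 tested (61.5%), beside 22.8% of all tested genes. Its median change was 0.93, which is 0.38 above that of all tested genes. This distance was 0.41 under a common median and lay between 0.33 and 0.43 with 1 library left out. With trends of transcript length and GC content removed, the median was 0.83, beside 0.55 for all tested genes. No test of the difference between complexes was run. Cox7a2 (chr9:79755361-79759878), the non-muscle form of a small subunit, had 77.6, 79.7, 82.0 and 56.2 FPKM in PTH livers, against 32.7, 26.1 and 24.4 FPKM in PBS livers. The groups lay far apart, with a change of 1.39 (SE 0.26, adjusted p = 0.00644), and of 0.77 (adjusted p = 0.0364) under a common median. Under a common median with 1 library left out, Cox7a2 was past the threshold only without PTH 1, and Ndufb9 was past it whichever library was left out.

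Cox7a2l (chr17:83501918-83517330) encodes a relative of Cox7a2 that joins complexes III and IV in supercomplexes, and C57BL/6 mice are known to carry a shortened form of this protein. It had 45.9, 54.5, 41.1 and 40.3 FPKM in PTH livers, against 20.5, 9.31 and 17.5 FPKM in PBS livers. The lowest PTH library was well above the highest PBS library, and the change was 1.56 (SE 0.30, adjusted p = 0.00751). Cox6c (chr15:35925886-35938246), among the most abundant members, had 273, 223, 244 and 190.9 FPKM in PTH livers, against 106, 79.5 and 100.3 FPKM in PBS livers. The groups again did not overlap, with a change of 1.28 (SE 0.26, adjusted p = 0.00836), and Cox6c shares its listed locus with another gene. Cox4i1, the regulatory subunit that binds ATP, had 229, 312, 242 and 190.4 FPKM in PTH livers, against 152, 112 and 117 FPKM in PBS livers. These groups also did not overlap, with a change of 0.93 (SE 0.27, adjusted p = 0.0294), and Cox4i1 too has a listed locus in common with another gene.

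The remaining higher genes of complex IV were Cox8a (1.25, adjusted p = 0.0159), Cox6a1 (1.09, adjusted p = 0.0181), Cox7c (1.05, adjusted p = 0.0326) and Cox6b1 (0.83, adjusted p = 0.0493), all small nuclear subunits. Ndufa4, a subunit at the edge of complex IV, had 167 ± 53.3 FPKM in PTH livers and 96.7 ± 21.8 FPKM in PBS livers (SD, n = 4 and 3), with a change of 0.75 (adjusted p = 0.093). Cox5a and Cox5b, which surround the catalytic core, had changes of 0.55 (adjusted p = 0.15) and 0.23 (adjusted p = 0.575), and under a common median both had the other sign, at -0.068 and -0.39. Cox7b, another small subunit gene, had the smallest change of the complex. It had 65.3, 81.6, 46.7 and 29.7 FPKM in PTH livers, against 48.8, 49.9 and 56.4 FPKM in PBS livers. The PTH libraries lay on both sides of the PBS libraries, with a change of 0.02 (SE 0.33, adjusted p = 0.976) that was -0.61 under a common median. The count of higher complex IV genes was 3 without PTH 2 or PBS 3, 4 without PBS 2, 5 without PTH 3, 6 without PBS 1, 7 without PTH 1 and 8 without PTH 4. It was 1 under a common median and 4 with quantile scaling.

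Complex IV is also where the tissue-specific forms are found, and here liver forms stood almost alone. The 7 members that did not pass the filter on low values were all of complex IV. The heart and muscle form Cox8b, the lung form Cox4i2 and the testis forms Cox7b2 and Cox8c were listed at 0 in all 7 libraries. The muscle form Cox6a2 was listed above 0 in PTH 1 and PTH 4, the muscle form Cox7a1 in PTH 1 and PTH 2, and the testis form Cox6b2 in PTH 2 and PBS 1, each resting on at most 2 estimated reads. By FPKM, Cox7a2 made up 97.5% to 100% of the sum of Cox7a2 and Cox7a1 in PTH livers and 100% in PBS livers. Ndufa4l2, a form raised by low oxygen in other tissues, made up 0.103% to 1.01% of the sum with Ndufa4 in PTH livers and 0% to 0.699% in PBS livers, on at most 4 estimated reads. The summed level of 10 skeletal muscle markers, 6 of them at 0 in every library with Ckm and Acta1 among them, was 0 to 5.26 FPKM in PTH livers and 0 to 6.41 FPKM in PBS livers.

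**Figure D2:**
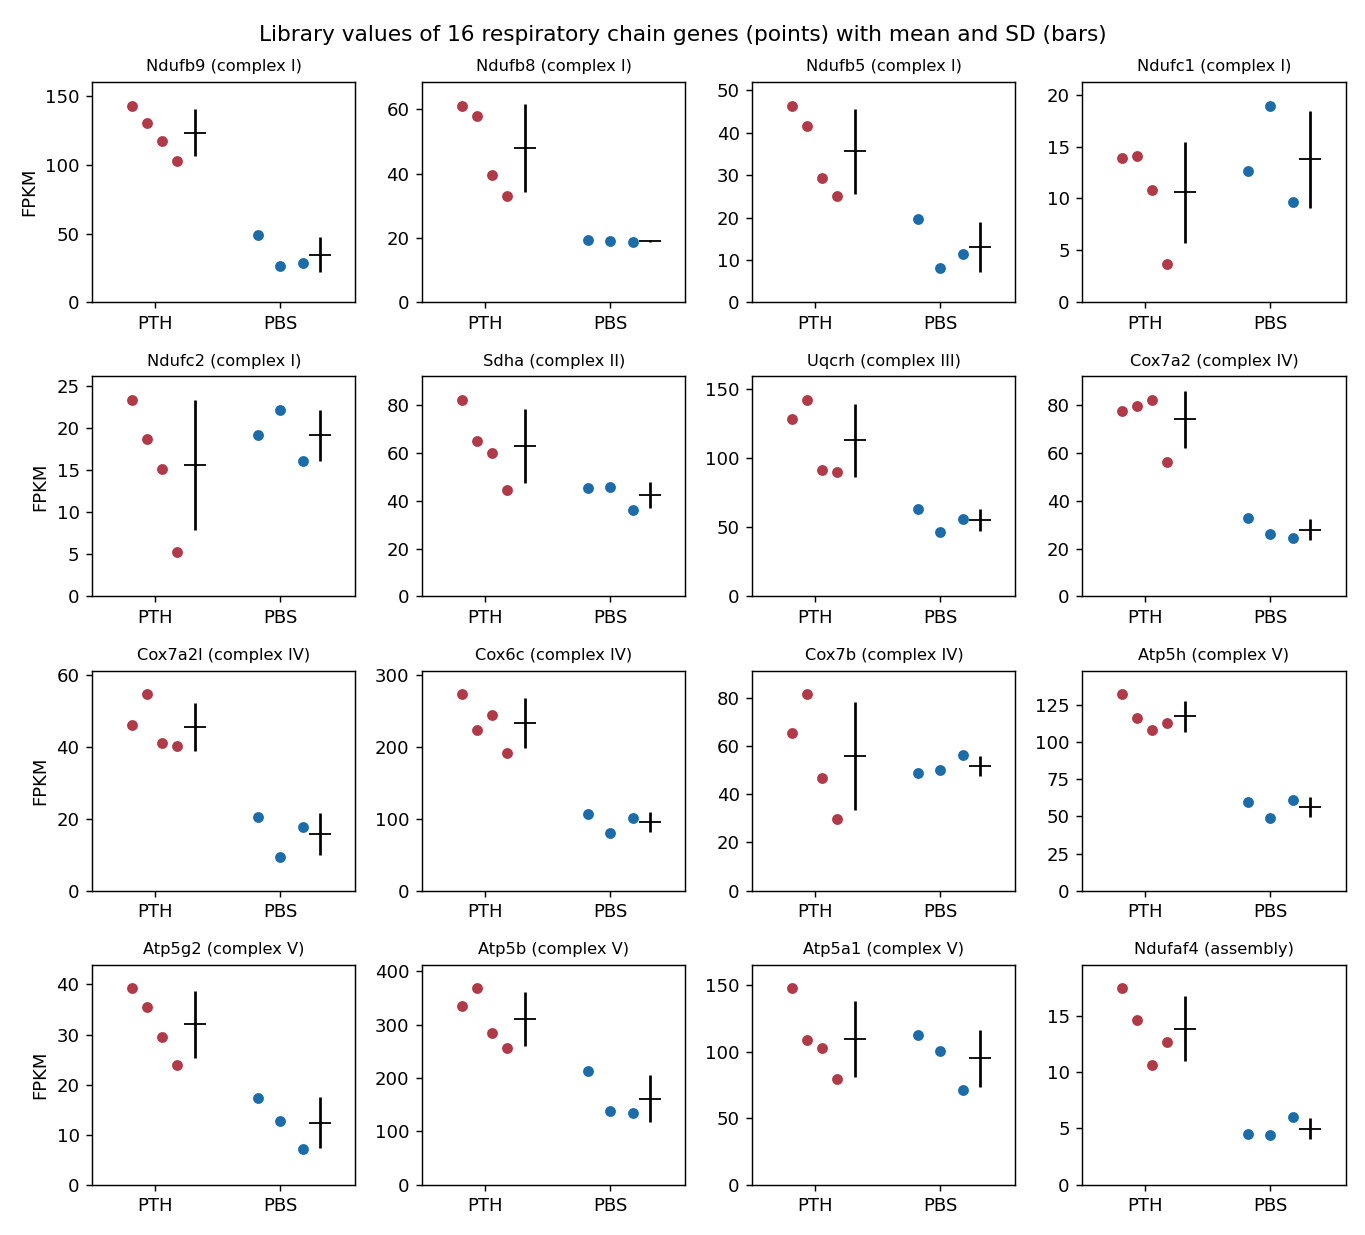
FPKM of 16 genes in each library, PTH left and PBS right, with the replicates of a group in numerical order from left to right and the mean and SD beside them; every axis starts at 0. Ndufb9, Cox7a2 and Cox6c show no overlap between the groups, while Cox7b, Atp5a1, Ndufc1 and Ndufc2 overlap.

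In complex V, ATP synthase, 6 of 15 genes were higher (40%), beside 22.8% of all tested genes, and the median change was 0.65, which is 0.10 above that of all tested genes. They were 2 of 5 genes of the catalytic F1 head and 4 of 10 of the membrane part and stalk. Atp5h (chr11:115415689-115419962), the stalk subunit d, had 133, 117, 108 and 113 FPKM in PTH livers, against 59.5, 48.8 and 61.0 FPKM in PBS livers. The spread within each group was small beside the gap between them, with a change of 1.05 (SE 0.24, adjusted p = 0.0127). Atp5b, the catalytic beta subunit and the most abundant member, had 336, 368, 284 and 256 FPKM in PTH livers, against 212, 137 and 134 FPKM in PBS livers. The groups did not overlap, and the change was 0.96 (SE 0.28, adjusted p = 0.0282). Its partner in the head, the alpha subunit gene Atp5a1, had 148, 109, 102 and 79.3 FPKM in PTH livers, against 113, 101 and 71.4 FPKM in PBS livers. Here the groups overlapped widely, with a change of 0.19 (SE 0.29, adjusted p = 0.633) that was -0.43 under a common median.

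Alpha and beta subunits stand in equal number in the enzyme, yet their transcripts were listed in different proportions. The FPKM ratio of Atp5b to Atp5a1 was 2.27, 3.39, 2.78 and 3.22 in PTH livers, against 1.89, 1.36 and 1.88 in PBS livers, with no overlap. A ratio within a library does not depend on a single scaling factor per library. This pair and the other ratios given here were chosen after their values were seen, and no test was made of them. The ratio of the gamma subunit gene Atp5c1 to Atp5a1 was 0.549 to 0.743 in PTH livers and 0.285 to 0.432 in PBS livers. The coupling factor gene Atp5j was close to Atp5a1 in its change, at 0.12 (adjusted p = 0.751), and had the other sign under a common median, at -0.51. Among 4 other pairs of subunits of 1 complex, 3 overlapped between the groups. The ratio of Ndufv1 to Ndufv2 was 1.63 ± 0.594 in PTH livers and 0.994 ± 0.256 in PBS livers (SD, n = 4 and 3). That of Uqcrc1 to Uqcrc2 was 0.625 to 0.970 in PTH livers and 0.897 to 1.08 in PBS livers, and that of Cox5a to Cox5b was 0.411 to 0.892 in PTH livers and 0.470 to 0.564 in PBS livers. The ratio of Ndufb8 to Ndufc2 did not overlap, with 2.61 to 6.27 in PTH livers and 0.853 to 1.15 in PBS livers.

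The membrane ring of subunit c is encoded by Atp5g1, Atp5g2 and Atp5g3, whose mature proteins are the same. Atp5g2 was the least abundant of them and the one that was higher. It had 39.2, 35.5, 29.4 and 24.0 FPKM in PTH livers, against 17.3, 12.7 and 7.16 FPKM in PBS livers. The groups did not overlap, with a change of 1.40 (SE 0.32, adjusted p = 0.0139), and the adjusted p was 0.051 without PBS 3. Atp5g1 had a change of 0.75 (adjusted p = 0.111) and Atp5g3 one of 0.52 (adjusted p = 0.26), which was -0.10 under a common median. Of the 3 genes' summed FPKM, Atp5g2 made up 15.7% to 20.2% in PTH livers and 8.09% to 12.7% in PBS livers, while Atp5g1 made up 32.9% to 37.8% in PTH livers and 29.9% to 41.0% in PBS livers. The remaining higher genes were Atp5j2 (subunit f), Atp5o (the stalk subunit that confers oligomycin sensitivity, shared locus) and Atp5c1, with changes between 0.95 and 0.999. With 1 library left out, 1 complex V gene was higher without PBS 3, 2 without PTH 2 or PBS 2, 4 without PTH 3 and 6 in the other cases.

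Among the Ndufaf assembly factors 1 of 7 was higher (14.3%), beside 22.8% of all tested genes, and the median change was 0.61, which is 0.06 above that of all tested genes. Ndufaf4 (chr4:24898083-24905001), a factor needed for complex I assembly, had 17.4, 14.6, 10.6 and 12.7 FPKM in PTH livers, against 4.48, 4.38 and 6.04 FPKM in PBS livers. The groups did not overlap, and the change was 1.38 (SE 0.28, adjusted p = 0.00848). Under a common median it was 0.79 (adjusted p = 0.0944). The other factors were low, between 0 and 12.6 FPKM in any library. Ndufaf1 had a change of 0.69 (adjusted p = 0.127), Ndufaf6 of 1.28 (SE 0.60, adjusted p = 0.133), Ndufaf5 of 0.61 (SE 0.62, adjusted p = 0.473) and Ndufaf2 of 0.55 (adjusted p = 0.292). Ndufaf7 had one of 0.18 (adjusted p = 0.706), and under a common median Ndufaf2 and Ndufaf7 had the other sign, at -0.017 and -0.32. Ndufaf3 had the only change below 0, at -0.42 (SE 0.51, adjusted p = 0.559), on 1 to 13 estimated reads. Of the genes set apart, the pseudogene Atp5l-ps1 passed the threshold with 1.32, 2.61, 1.46 and 0 FPKM in PTH livers and 0 in all PBS livers, but on at most 2 estimated reads, so no fold is given.

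Levels varied within the groups in a way that most members shared. PTH 4 was the lowest PTH library for 74 of the 86 members, beside 42.5% of all tested genes, and PTH 1 was the highest for 54, beside 35.1%. Relative to the group mean the members' median in PTH 1 stood 0.38 higher on the log2 scale, against 0.08 for all tested genes, and in PTH 4 it stood at -0.46, against -0.17. Estimated reads, from the listed genes alone, were 3222687, 3281505, 2546786 and 1621721 in PTH 1 to 4, and 2556673, 1734534 and 1200680 in PBS 1 to 3, so the PTH library with the fewest reads was also the lowest in these genes. The part of depth in this was not tested. The median over all tested genes was 6.84, 7.28, 6.42 and 5.73 FPKM in PTH livers, against 4.83, 4.16 and 3.77 FPKM in PBS livers, without overlap. The median of complex IV genes was 108, 145, 85.3 and 72.7 FPKM in PTH livers, against 62.9, 56.4 and 53.3 FPKM in PBS livers. That of complex III was 109, 94.9, 72.1 and 47.0 FPKM in PTH livers, against 43.2, 44.8 and 33.8 FPKM in PBS livers. These were the complexes whose medians did not overlap between the groups, as was the case for all tested genes. In complexes I, II and V, PTH 4 fell among the PBS libraries. Once each median was divided by that of all tested genes in the same library, the groups overlapped in complexes III and IV. Complex IV then stood at 15.86, 19.98, 13.28 and 12.7 in PTH livers, against 13.04, 13.53 and 14.15 in PBS livers. Complex III stood at 15.95, 13.04, 11.24 and 8.205 in PTH livers, against 8.952, 10.75 and 8.971 in PBS livers.

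**Figure D3:**
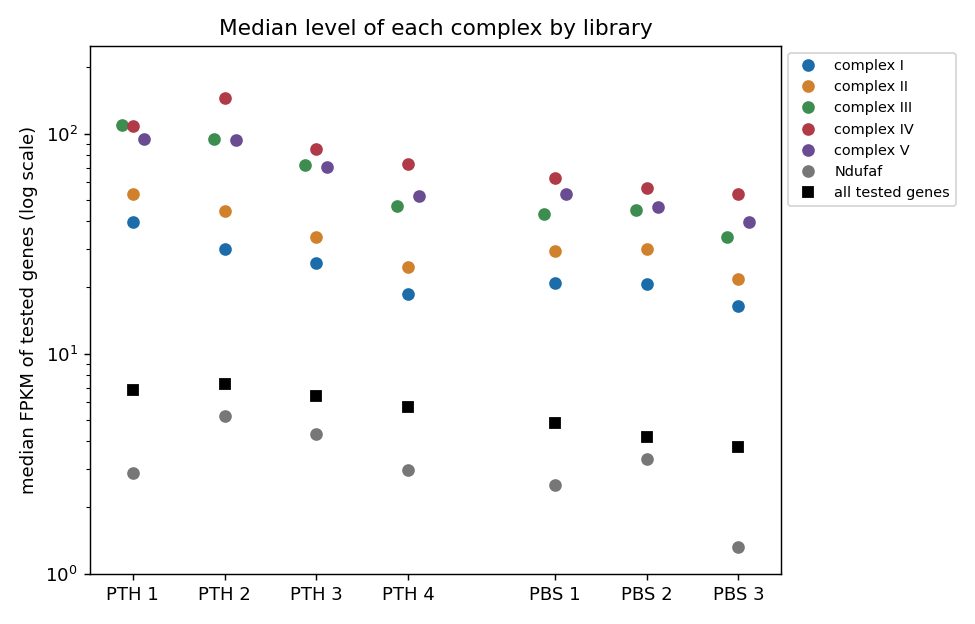
Median FPKM, on a log axis, of the tested genes of each complex, of the Ndufaf genes and of all tested genes, for the 4 PTH and 3 PBS libraries; points of complexes III and V are moved sideways so that they can be seen. Complexes III and IV show no overlap between PTH and PBS libraries, and neither does the median of all tested genes. PTH 4 is the lowest PTH library in every complex.

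**Figure D4:**
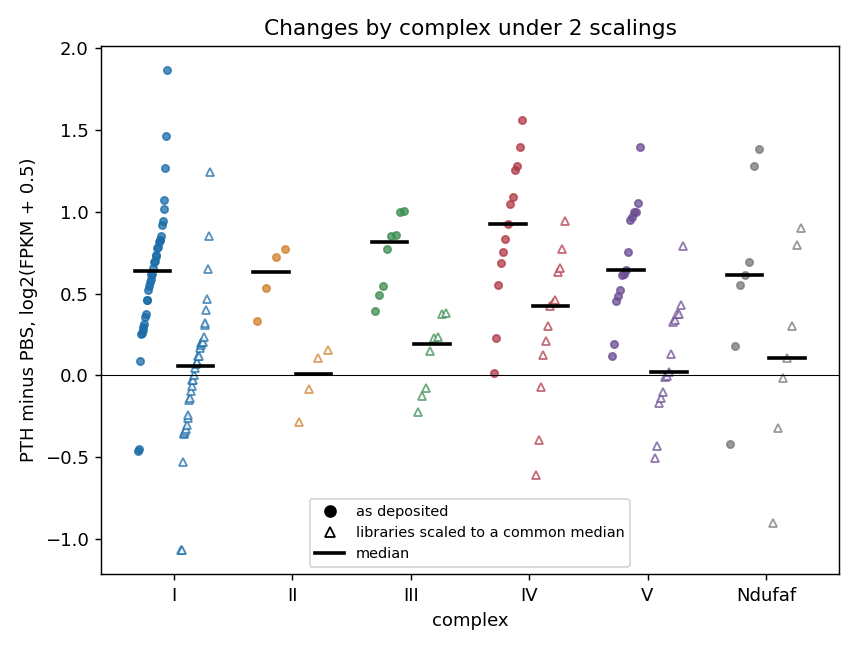
Log2 change, PTH minus PBS, of each tested gene by complex, as deposited (filled circles, left) and with libraries brought to a common median (open triangles, right), with the median as a bar. The bars as deposited run from 0.61 for the Ndufaf genes to 0.93 for complex IV, and under a common median from 0.01 for complex II to 0.43 for complex IV.

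Genes that act beside the nuclear subunits are given by lists. Of 12 tested genes encoded by mitochondrial DNA, which code for the remaining subunits, 0 were higher and 0 lower, beside 22.8% and 2.37% of all tested genes. Their median change was -0.27, beside 0.70 for the nuclear members. Under a common median 1 of the mitochondrially encoded genes, mt-Co3, was lower, beside 4.75% of all tested genes. It was listed far below mt-Co1, with 41.5 and 7291 FPKM as the mean of the group means. The call for mt-Co3 rests on 37 to 147 estimated reads, and its listed locus is shared with another gene. Both cytochrome genes of the list were higher as deposited. Cycs, whose product carries electrons between complexes III and IV, had 42.7 ± 14.6 FPKM in PTH livers and 21.1 ± 1.69 FPKM in PBS livers, and Cyc1, the cytochrome c1 subunit of complex III outside the symbol rule, had 40.0 ± 10.1 FPKM in PTH livers and 18.6 ± 6.16 FPKM in PBS livers (SD, n = 4 and 3). Neither passed under a common median (adjusted p = 0.443 for Cycs and 0.234 for Cyc1), and with 1 library left out Cycs passed in 1 of 7 fits and Cyc1 in 3 of 7. Of 36 other tested assembly factors 8 were higher and 0 lower, beside 22.8% and 2.37% of all tested genes, and 0 were higher under a common median. The lowest adjusted p values were those of Coa5 (change 1.35, adjusted p = 0.0109) and Cox14 (1.54, adjusted p = 0.0132), both of complex IV assembly, and Ttc19 (1.33, adjusted p = 0.0226), of complex III. Of 13 tricarboxylic acid cycle genes 4 were higher, beside 22.8% of all tested genes, namely citrate synthase Cs (1.38, adjusted p = 0.00762) and the isocitrate dehydrogenase subunit genes Idh3a, Idh3b and Idh3g, and 0 lower. Their median change of 0.43 lay below the 0.55 of all tested genes, and 0 were higher under a common median.

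Of 12 transcription regulators of mitochondrial genes, 4 were higher and 0 lower, beside 22.8% and 2.37% of all tested genes. Nrf1, whose product binds the motif searched above, had 15.5 ± 5.29 FPKM in PTH livers and 6.49 ± 2.57 FPKM in PBS livers, with a change of 1.22 (SE 0.36, adjusted p = 0.0308). The GABP subunit genes Gabpa and Gabpb1 had changes of 0.9998 (adjusted p = 0.0215) and 1.42 (adjusted p = 0.0159), and Yy1 one of 0.86 (adjusted p = 0.045). Gabpa has a listed locus in common with another gene. With 1 library left out Nrf1 and Gabpb1 passed in 4 of 7 fits, Gabpa in 3 of 7 and Yy1 in 2 of 7. Ppargc1a, the coactivator that drives mitochondrial biogenesis and responds to cyclic AMP, had 0.627, 4.54, 10.8 and 7.02 FPKM in PTH livers, against 8.84, 3.90 and 15.4 FPKM in PBS livers. The groups overlapped, with a change of -0.89 (SE 0.69, adjusted p = 0.346). The nuclear receptor gene Esrra had a change of 1.18 (adjusted p = 0.0514) and Tfam, the packaging factor of mitochondrial DNA, one of 0.36 (adjusted p = 0.397). No regulator passed the threshold under a common median.

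Of 21 genes of the protein import machinery and outer membrane of the mitochondrion, 11 were higher and 0 lower, beside 22.8% and 2.37% of all tested genes. Tomm5, Tomm20 and Tomm22, parts of the outer membrane translocase, were also the 3 past the threshold under a common median, beside 2.96% of all tested genes. Tomm5 had 20.8, 32.8, 18.8 and 17.7 FPKM in PTH livers, against 4.88, 4.36 and 5.88 FPKM in PBS livers. The groups lay far apart, with a change of 2.02 (SE 0.29, adjusted p = 0.00338).

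Cell type markers differed between the groups, and in bulk liver fewer cells of a type and less RNA per cell cannot be told apart. Among all tested genes 22.8% were higher and 2.37% lower, which stands beside each count below. Of 8 hepatocyte markers 0 were higher and 1, Tat, lower, and their summed level was 16900 to 29900 FPKM in PTH livers and 9177 to 25190 FPKM in PBS livers. Of 6 tested neutrophil markers 5 were lower and 0 higher, with summed levels of 111 to 761 FPKM in PTH livers and 1159 to 2722 FPKM in PBS livers. Most of each sum was Lcn2, which hepatocytes also make, with 414, 104, 729 and 221 FPKM in PTH livers, against 1907, 1121 and 1815 FPKM in PBS livers. The granule genes were highest in PBS 1, as in Ngp with 0, 0.182, 0 and 0 FPKM in PTH livers, against 57.8, 0.566 and 4.95 FPKM in PBS livers, and Ngp passed in 0 of 4 fits with 1 library left out. Of 7 macrophage markers 4 were lower and 1 higher, with summed levels of 65.2 to 100.3 FPKM in PTH livers and 94.0 to 135 FPKM in PBS livers. Of 6 tested erythroid markers 2 were higher and 0 lower, with summed levels of 103 to 269 FPKM in PTH livers and 61.0 to 116 FPKM in PBS livers. The part of these cells in the levels of respiratory chain genes was not tested.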

How the data were processed

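RNA of 4 PTH and 3 PBS liver libraries was sequenced, and the treatment label gave the groups. The authors deposited 1 column of FPKM and 1 of counts per library, per the file headers. Bowtie 0.12.2 and mm8 are named in the submitters' processing notes, while the sources used here do not give the quantifying tool. The listed loci match GRCm38 instead: 92 of the 93 members span their GENCODE M21 gene within 5000 bases. The deposited counts are a scaled signal, since 92.4% to 94.2% of a library's values came out whole (within 0.05) once divided by a step of its own. This was too few to recover whole reads, so no count test was run, and estimated reads are the total divided by the step. Depth limits the precision of low genes.

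Tests used limma 3.58.1 (R 4.3.3) with a trended, robust eBayes on log2(FPKM + 0.5) for genes reaching 0.5 FPKM in 3 or more libraries, two-sided, with Benjamini-Hochberg adjustment over 11861 genes and a threshold of 0.05. For low genes this scale gives too small a change. Values were not rescaled. A shared locus marks a gene whose listed locus is also another gene's, which holds for 23 members, and reads could be split there. The sources used here do not say whether counting used strand. Alternatives were other scalings, filters, pseudocounts and weights, the scaled counts, removal of trends with transcript length and GC content, a replicate block, and leaving out each library. Named genes were, per complex, the 3 most abundant, the 3 with the smallest p and the extreme changes, all Ndufaf genes and isoform pairs. Other genes past the threshold, except 1 that is not reported here by name, the remaining core subunits and the subunit ratios were named after their values were seen. The members and lists were chosen with earlier results of these data known. Python 3.11.15 and matplotlib 3.10.9 drew the figures.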

Additional observations from a re-analysis of the deposited data

Results flagged for a closer look

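Among 46 named genes with 4 PTH libraries, 1 value lay far from the others of its group by Dixon's criterion, and chance marks about 1 group in 20. Ndufaf7, which encodes a methyltransferase that acts on a complex I subunit during assembly, had 2.80 FPKM in PTH 1, against 1.89 to 1.99 FPKM in the other 3 PTH libraries. PBS 1 was close to PTH 1 at 2.53 FPKM, so the value lies near the range of the PBS livers, 1.31 to 2.53 FPKM. The cause was not tested.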

How the results depend on the processing

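As deposited, 2990 genes and 26 respiratory chain genes passed the threshold. The counts were 914 and 2 under a common median, and 977 and 6 with quantile scaling. The share of calls that were higher was 90.6% as deposited and 38.4% under a common median. With 1 library left out they ran from 1120 to 3171 and from 8 to 34. Under a common median with 1 library left out, an alternative chosen after seeing the data, the members' counts ran from 1 to 2, and those of all genes were 1565 without PTH 1, 240 without PTH 2, 437 without PTH 3, 405 without PTH 4, 262 without PBS 1, 422 without PBS 2 and 444 without PBS 3. With a replicate block the counts were 1735 and 29, of which 24 members were also called without it. The deviations of same-numbered libraries correlated at -0.04, -0.18 and 0.06, and those of differently numbered libraries between -0.20 and 0.22. These values cannot settle whether replicate numbers shared by the groups pair the samples. No member was lower in any alternative. Under the other alternatives the count of higher members lay between 18, without genes of a shared locus, and 29, with scaled counts, within 1.5 times. The median of complex IV stayed above that of all tested genes in every alternative run. For complex II that difference was -0.002 under a common median, and with length and GC trends removed it was -0.004 for complex I. The Ndufaf median was 0.49, beside 0.55 for all tested genes, with those trends removed. It was 0.44, beside 0.50, without PTH 2 and 0.39, beside 0.47, without PBS 3. With quantile scaling it lay above, at 0.098 beside 0.051. Under a common median without PTH 1 the medians were -0.035 for complex I and -0.060 for complex V, beside 0.014 for all tested genes. Over all 86 tested members the change was above 0 for 83 as deposited and for 50 under a common median. Among the genes named by the rule, these had another sign of the log2 change in an alternative, and none of them passed the threshold as deposited. Under a common median the changes were -0.29 for Sdhb, -0.085 for Sdha, -0.079 for Uqcrq, -0.61 for Cox7b, -0.43 for Atp5a1, -0.10 for Atp5g3, -0.017 for Ndufaf2 and -0.32 for Ndufaf7. With quantile scaling they were -0.14 for Sdhb, -0.41 for Cox7b, -0.24 for Atp5a1 and -0.26 for Ndufaf7. With scaled counts Ndufc1 was at 0.36, and with length and GC trends removed Cox7b was at -0.18. With 1 library left out Cox7b ran from -0.20 to 0.28 and Ndufaf7 from -0.0048 to 0.36. The cause was not tested. Genes on few reads, such as Ndufaf3 and Ndufa4l2, are limited by depth. The count test planned for recovered whole reads was not run, since too few values came out whole.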
